A study of Mus musculus with 14 samples.

Results

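The blood cell integrin genes described here are 10 genes, Itgal, Itgb2, Itga4, Itgb1, Itgb7, Itga2b, Itgb3, Itga5, Itga6 and Itgav, of 53465 in the count table. They were picked by gene name as alpha and beta chains of leukocytes, blood progenitors and megakaryocytes. The list was chosen by a reader who already knew the knockdown results, among them the lower level of Itgal. The members' differences between Ogdh hairpin and control cells are therefore given as a description with no p-value. Of the 10 genes, 9 passed the filter on low counts and were among the 10791 genes tested, and Itgav did not.

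RNA was sequenced from KL974, a single mouse acute myeloid leukemia (AML) line of genotype Trp53R172H;shMll3;shNf1, which every group shares. The cells grew with mouse IL3, IL6 and SCF, cytokines that support blood progenitors and mast cells. They carried a lentiviral short hairpin that doxycycline turns on along with blue fluorescent protein (BFP). The 14 libraries form 7 groups of 2. With the control hairpin shRen713 there were untreated cells at day 0, and doxycycline-treated cells sorted as BFP- (hairpin not induced) or BFP+ (induced) at day 2 and at day 4. With each of shOgdh346 and shOgdh2081, hairpins against Ogdh, there were BFP+ cells at day 4. The design asks what changes when Ogdh, the first enzyme subunit of the 2-oxoglutarate dehydrogenase complex of the citric acid cycle, is knocked down. No label states that the replicates of a group came from separate cultures. The p-values therefore reflect only how far these libraries vary, and that variation may be technical.

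Integrins are cell surface receptors made of 1 alpha and 1 beta chain, and a chain reaches the surface mainly when it pairs with a partner. They hold blood cells to matrix proteins, to vessel walls and to bone marrow stroma, and they switch from a low to a high affinity state when talin and kindlin bind the tail of the beta chain. Itgal and Itgb2 form LFA-1, the leukocyte receptor for ICAM proteins. Itga4 pairs with Itgb1 to form VLA-4, a receptor for VCAM-1 and fibronectin that keeps progenitors in the marrow, or with Itgb7 to form the gut homing receptor for MAdCAM-1. Itga5 and Itga6 pair with Itgb1 as receptors for fibronectin and laminin. Itga2b (CD41) and Itgb3 form the platelet fibrinogen receptor, and Itgav pairs with Itgb3 and other beta chains as a receptor for vitronectin.

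Levels are in CPM, a gene's count scaled to a common total of tested genes with TMM factors. Library totals ran from 913482 to 10271698 counts and were uneven in the Ogdh groups, where shOgdh346 replicate 2 had 1159021 and shOgdh2081 replicate 1 had 913482. Ogdh measured 247.5 and 266.7 CPM in control BFP+ cells at day 4, 60.8 and 60.8 CPM in the libraries labelled shOgdh346, and 51.5 and 52.4 CPM in those labelled shOgdh2081, below all 10 control libraries. The progenitor gene Kit measured 481 to 580.2 CPM in every library, while the early myeloid genes Mpo, Elane, Prtn3 and Ctsg summed to at most 0.291 CPM and Cd34 had 2 counts in all. Summed neutrophil markers reached at most 1.10 CPM, monocyte and macrophage markers 1.88 CPM, T cell markers 0.781 CPM and B cell markers 0.388 CPM. All 7 erythroid genes were present, at 613.7 to 875.6 CPM summed. The megakaryocyte and platelet list summed to 32.0 to 51.5 CPM, with Vwf, Gp1ba and Gp5 at 967, 668 and 370 counts in all. Its platelet genes Pf4 and Ppbp had 1 count each. In bulk libraries fewer cells with a transcript and less transcript per cell cannot be told apart.

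The line's integrin transcripts were mostly those of the fibronectin and VCAM-1 receptors. Levels are compared between genes only per kilobase of the deposited transcript length. As the mean over 14 libraries, Itgb1, the shared beta chain, came first with 100.3 CPM per kilobase. Itga5 followed with 52.7, Itgb7 with 43.7 and Itga4 with 25.7 CPM per kilobase. Far lower were Itgb2 with 8.09, Itga2b with 7.77, Itga6 with 5.28 and Itgal with 3.55 CPM per kilobase. Itgb3, at 0.672, and Itgav, at 0.151 CPM per kilobase, came last. The step from Itgb1 to Itga5 held in 14 of 14 libraries, and their ranges did not overlap (87.3 to 119.9 against 35.7 to 64.4 CPM per kilobase). Itga5 lay above Itgb7 in 12 of 14 libraries. Itgb2 lay above Itga2b in only 7 of 14 libraries, so those neighbours could not be ordered. The order of these means did not change when the merged exons of the GENCODE M21 annotation were used as the length. Within groups that length put Itgb7 above Itga5 at day 0 (43.9 against 40.5) and in BFP+ cells at day 2 (35.4 against 34.6 CPM per kilobase). Together the 10 transcripts summed to between 1044 and 1422 CPM, lowest in both control BFP+ libraries at day 2 and highest in shOgdh346 replicate 2.

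**Figure D1:**
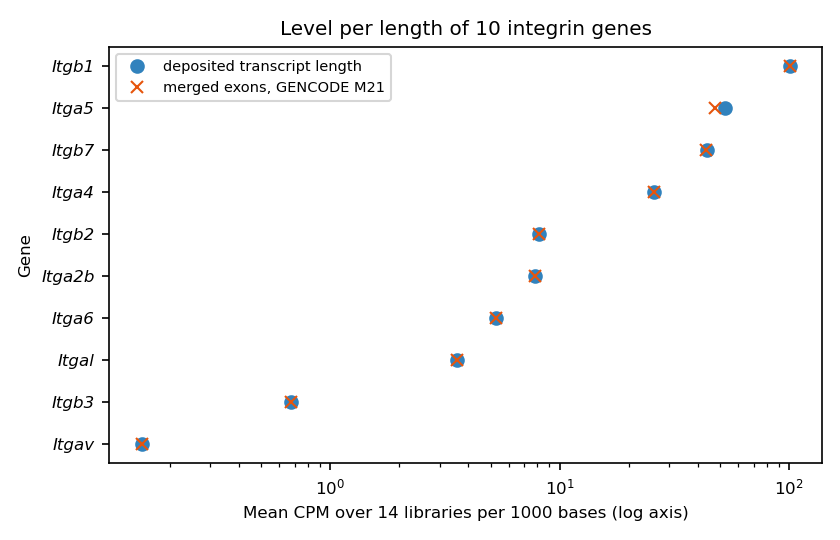
Mean level of each of the 10 integrin genes over 14 libraries, in CPM per kilobase on a log axis, with the deposited transcript length (circles) or merged GENCODE M21 exons (crosses). Itgb1 lies at 100.3 and Itgav at 0.151 CPM per kilobase, and both lengths give the same order of these means.

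Of 16 other integrin chains, only Itga9 (20.5 to 46.6 CPM) and Itga10 (3.13 to 10.2 CPM) passed the filter on low counts. The genes of the beta 2 partners of mature myeloid cells, Itgam, Itgax and Itgad, had 0 counts in all 14 libraries together, as did Itga8 and Itgb6. Itgal was thus the one alpha partner of Itgb2 that was tested in this line. All 10 members are annotated as protein coding, and their positions below are on GRCm38.

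Upstream sequence is shown for 3 of the 4 members that were called lower in induced control cells at day 2, a comparison without Ogdh hairpin libraries. Those calls leaned on BFP+ replicate 1, as given below, and the list was chosen with earlier results of these data known. RefSeq's table of promoters (GRCm38.p6) matched 6 of the 10 members, and these are the 250 bases before the RefSeq start. Itga4 is at chr2:79255176-79255425 on the plus strand, Itga2b at chr11:102469884-102470133 on the minus strand and Itga5 at chr15:103366792-103367041 on the minus strand. The window of Itga2b overlaps an exon of another GENCODE transcript of that gene. The GENCODE span of Itga2b reaches chr11:102470122, so most of this window lies inside the annotated gene. Its distances are from the RefSeq start only. Each is written 5′ to 3′ on the gene's strand, with capitals on any match, on either strand, to the ETS core GGAAG, the GC box GGGCGG, the GATA motif GATAA, the RUNX motif TGTGGT or the AP-1 motif TGAGTCA.
Itga4: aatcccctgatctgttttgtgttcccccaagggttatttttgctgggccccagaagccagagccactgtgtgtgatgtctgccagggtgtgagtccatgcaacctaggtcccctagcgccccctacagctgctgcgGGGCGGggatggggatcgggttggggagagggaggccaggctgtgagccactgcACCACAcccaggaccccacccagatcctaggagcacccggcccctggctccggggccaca
Itga2b: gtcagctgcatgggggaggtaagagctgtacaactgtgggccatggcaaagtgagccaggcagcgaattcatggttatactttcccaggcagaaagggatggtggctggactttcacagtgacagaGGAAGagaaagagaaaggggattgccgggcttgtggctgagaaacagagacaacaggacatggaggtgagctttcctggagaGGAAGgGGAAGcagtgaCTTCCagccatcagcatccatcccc
Itga5: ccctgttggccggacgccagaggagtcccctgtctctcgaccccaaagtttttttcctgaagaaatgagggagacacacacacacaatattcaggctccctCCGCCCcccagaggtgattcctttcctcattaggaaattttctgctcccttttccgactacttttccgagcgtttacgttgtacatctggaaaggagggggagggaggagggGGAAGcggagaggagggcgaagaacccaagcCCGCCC
The Itga2b window held 4 ETS core matches, at 124, 42, 36 and 25 bases before the start. Itga5 held 1 ETS core match and 2 GC boxes, and Itga4 held 1 GC box and 1 RUNX match. No letters of the GATA or AP-1 motif were in these 3 windows, and none of the 5 motifs was shared by all of them. Of 32851 mouse promoters of the same length, 64.1% held GGAAG, 32.7% GGGCGG, 22.6% GATAA, 14% TGTGGT and 4.46% TGAGTCA. A match is a description of letters and not a bound site.

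**Figure D2:**
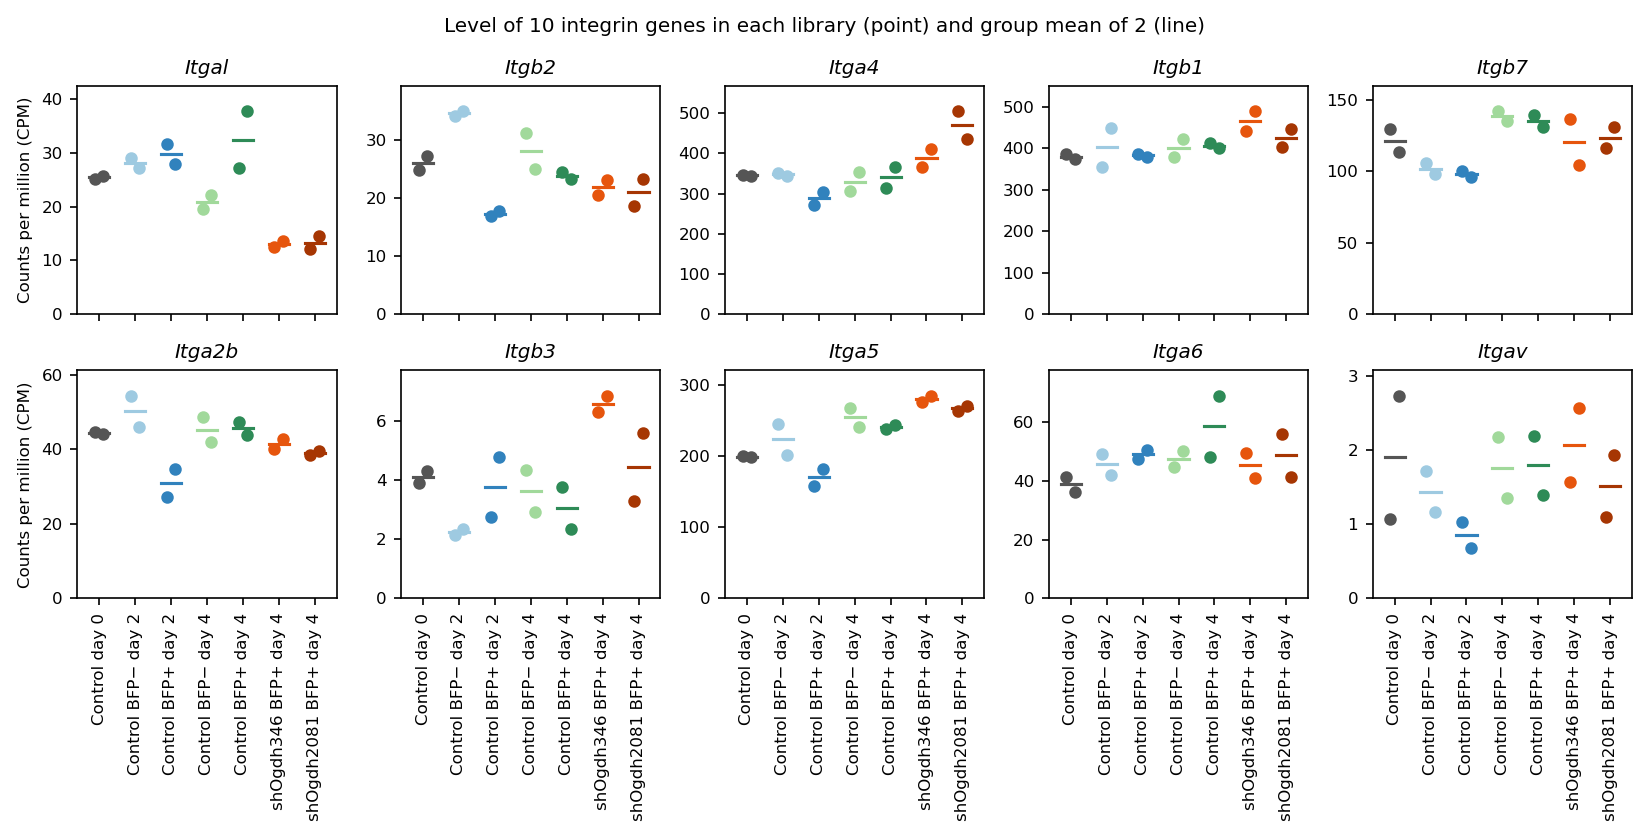
Level of each of the 10 integrin genes in CPM, with 1 point for each library and a line at the mean of the 2 libraries of a group. Every axis starts at 0. For Itgal the 4 Ogdh hairpin libraries sit between 12.1 and 14.6 CPM, below all 10 control libraries, and for Itgb2 both control BFP+ libraries at day 2 are the lowest.

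In the Ogdh knockdown libraries Itgal was lower by 57.5% and Itga4 higher by 24.2%, while the other 7 tested members were not called in either direction. Called means an adjusted p under 0.05 in edgeR's quasi-likelihood test over all 10791 genes. The member count was 1 lower and 1 higher of 9, in a comparison in which 8.48% of all tested genes were called lower and 7.84% higher. Since the list was chosen by results of this comparison, nothing is read from those counts. The same holds for members' calls with each hairpin, against BFP- cells and in alternatives below, which only describe the values. The median log2 fold change of the 9 members was -0.09, and that of all tested genes was 0.00024.

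Itgal (ENSMUSG00000030830, chr7:127296260-127335138, plus strand) encodes the alpha L chain of LFA-1 (CD11a). It measured 27.3 and 37.8 CPM in control BFP+ cells at day 4, 12.6 and 13.7 CPM under shOgdh346, and 12.1 and 14.6 CPM under shOgdh2081. The 4 hairpin libraries were close to each other and all lay below every control library, which ran from 19.5 to 37.8 CPM. The log2 fold change was -1.24 ± 0.17 (standard error) over both hairpins, -1.31 ± 0.20 with shOgdh346 and -1.17 ± 0.21 with shOgdh2081. In those single hairpin comparisons Itgal was the only member called lower (background 5.65% with shOgdh346 and 5.62% with shOgdh2081). Control BFP+ replicate 2 was the highest of all libraries, and the size depended on the control. Against BFP- cells at day 4, which measured 19.5 and 22.1 CPM, the log2 difference was -0.66 ± 0.16, or 36.7% lower. Within sets of library numbers (1 to 15 and 16 to 30 in the sample descriptions) the differences from BFP+ cells were -1.08 and -1.48. The counts behind these levels are small, from 11 to 228 a library.

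Itgb2 (ENSMUSG00000000290, chr10:77530252-77565708, plus strand), the beta 2 chain that pairs with Itgal, measured 24.4 and 23.3 CPM in the control BFP+ libraries at day 4. With shOgdh346 it measured 20.6 and 23.1 CPM, and with shOgdh2081 18.6 and 23.4 CPM. The highest hairpin library lay between the control libraries, so the groups touched, and the log2 fold change was -0.14 ± 0.17. The ratio of Itgal to Itgb2 CPM was 1.12 and 1.62 in control BFP+ cells at day 4, 0.610 and 0.593 with shOgdh346, and 0.647 and 0.624 with shOgdh2081. In all 10 control libraries this ratio ran from 0.626, in BFP- replicate 1 at day 4, to 1.88, in BFP+ replicate 1 at day 2. The hairpin ratios thus lay around the lower edge of the control range. Only that of shOgdh2081 replicate 1, at 0.647, was inside it, and the others were just below it.

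**Figure D3:**
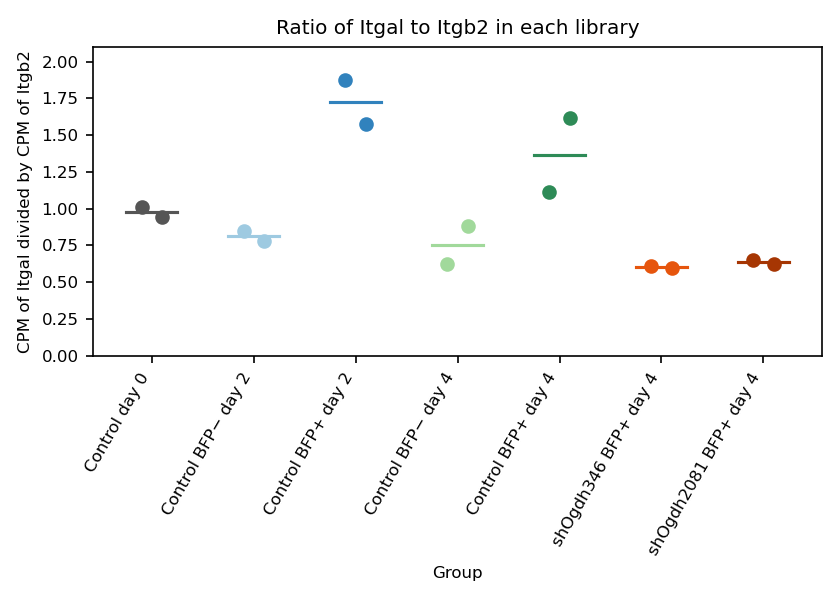
Ratio of Itgal to Itgb2, the chains of LFA-1, as CPM over CPM in each library (points), with the mean of each group of 2 (lines). The 4 Ogdh hairpin libraries lie between 0.593 and 0.647, and control BFP+ cells at day 2 are highest at 1.88 and 1.58.

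Itga4 (ENSMUSG00000027009, chr2:79255426-79333123, plus strand), the alpha 4 chain, measured 315 and 366 CPM in control BFP+ cells at day 4. It measured 365 and 412 CPM under shOgdh346 and 504 and 435 CPM under shOgdh2081. The shOgdh2081 libraries were the highest of all 14, while shOgdh346 replicate 1 lay just under the higher control library. The log2 fold change was 0.31 ± 0.07 over both hairpins, 0.45 ± 0.09 with shOgdh2081 and 0.18 ± 0.09 with shOgdh346. It was the only member called higher with shOgdh2081 (background 6.03%), and no member was called higher with shOgdh346 (background 5.59%). Over both hairpins the difference was 0.535 within the first set of library numbers and 0.125 within the second. Without control BFP+ replicate 1 it was 0.21 (0.34 for shOgdh2081 alone) and was no longer called. Cerkl overlaps Itga4 on the other strand, with 188 counts in all libraries, and the sources used here do not say whether counting used strand.

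The beta chains that pair with Itga4 were not called. Itgb1 (ENSMUSG00000025809, chr8:128685654-128733200, plus strand) measured 413 and 400.1 CPM in control BFP+ cells at day 4, 443 and 489.5 CPM under shOgdh346, and 402 and 448 CPM under shOgdh2081. Its log2 fold change over both hairpins was 0.13 ± 0.07. Itgb7 (ENSMUSG00000001281, chr15:102215995-102231935, minus strand) measured 139 and 131 CPM in the control, 137 and 104 CPM under shOgdh346, and 116 and 131 CPM under shOgdh2081. For Itgb7 the groups overlapped, with a difference of -0.09 ± 0.09.

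Nor were the fibronectin and laminin chains. Itga5 (ENSMUSG00000000555, chr15:103344286-103366763, minus strand) measured 238 and 244 CPM in the control, 276 and 286 CPM under shOgdh346, and 264 and 271 CPM under shOgdh2081. All 4 hairpin libraries were above both controls, yet the difference was 0.19 ± 0.08 and was not called. The BFP- libraries at day 4, at 268 and 242 CPM, reached into the hairpin range. Itga6 (ENSMUSG00000027111, chr2:71745616-71858416, plus strand) measured 48.2 and 69.0 CPM in the control, 49.6 and 41.1 CPM under shOgdh346, and 55.9 and 41.4 CPM under shOgdh2081. The 69.0 CPM of control BFP+ replicate 2 was its highest value in any library, and the lower control library lay inside the hairpin range. Its log2 fold change was -0.31 ± 0.13, and it was called without control BFP+ replicate 1 (-0.58) and without shOgdh2081 replicate 1 (-0.36).

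Among the megakaryocyte chains, Itga2b (ENSMUSG00000034664, chr11:102453297-102470122, minus strand) measured 47.3 and 43.8 CPM in the control, 40.0 and 42.8 CPM under shOgdh346, and 38.4 and 39.5 CPM under shOgdh2081. Every hairpin library was below both controls, by a small step, and the difference was -0.20 ± 0.13. Itgb3 (ENSMUSG00000020689, chr11:104608000-104670476, plus strand) measured 3.76 and 2.33 CPM in the control, 6.29 and 6.85 CPM under shOgdh346, and 3.29 and 5.58 CPM under shOgdh2081. This rests on 188 counts in all 14 libraries, and the difference was 0.85 ± 0.39. Itgav (ENSMUSG00000027087, chr2:83724397-83806916, plus strand) had 77 counts in all and measured 0.681 to 2.73 CPM across the libraries, with overlapping groups. With BFP- cells as the control, Itgal was again lower, and Itga4 (0.34 ± 0.07) and Itgb3 (0.79 ± 0.29) were higher, in a comparison that called 10.4% of tested genes lower and 10.6% higher. These comparisons share the hairpin libraries and are not independent.

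**Figure D4:**
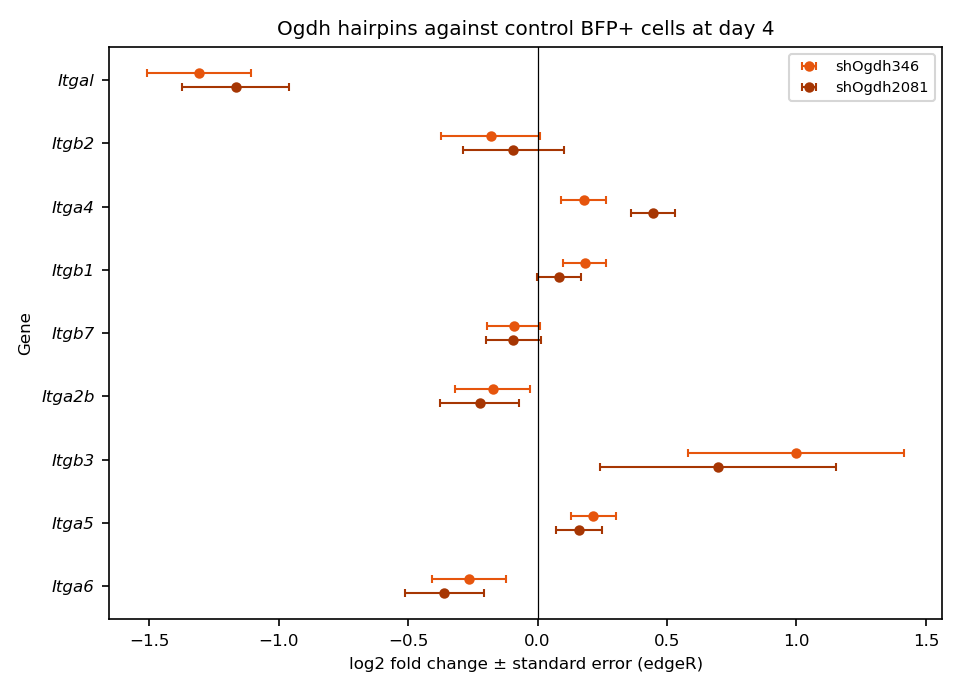
Log2 fold change of the 9 tested integrin genes with each Ogdh hairpin against control BFP+ cells at day 4 (points), with standard errors from edgeR (bars). Itgal lies at -1.31 and -1.17, and Itga4 at 0.18 with shOgdh346 and 0.45 with shOgdh2081.

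Other markers moved in the same libraries. Summed mast cell and basophil markers were 58.6 to 65.8 CPM in control BFP+ cells at day 4 and 118 to 136 CPM in the Ogdh libraries, nearly all from Ms4a2, with 5 of 6 markers detected and Tpsb2 at 0. Summed erythroid markers were 613.7 to 632.3 CPM in that control and 795 to 875.6 CPM in the Ogdh libraries, with 7 of 7 detected. Of these, 4 were called higher (background 7.84%), while Alas2 (0.65 ± 0.29), Klf1 (-0.06 ± 0.08) and Epor (-0.10 ± 0.09) were not called. BFP- cells at day 4 summed to 658.9 to 746.9 CPM, and against them 2 were called higher (background 10.6%). The megakaryocyte list was 42.6 to 44.3 CPM in the BFP+ control and 44.5 to 51.5 CPM in the Ogdh libraries. Of its 3 tested genes Vwf was higher (0.85 ± 0.18), while Gp1ba (-0.51 ± 0.20) and Gp5 (-0.52 ± 0.26) were not called, and the median was -0.51. The stroma list, mostly Col1a2 and Dcn, was 36.7 to 40.6 CPM in the control and 25.2 to 30.3 CPM in the Ogdh libraries. Of its 2 tested genes Col1a2 was called lower (-0.72 ± 0.18, background 8.48%) and Dcn was not called (0.07 ± 0.23). Col1a1 and Col3a1 had 3 counts each in all libraries. The progenitor list was 657.8 to 675.2 CPM in the control and 581.9 to 640.4 CPM in the Ogdh libraries. Of its 3 tested genes 1 was called lower (background 8.48%), Gata2, a progenitor and mast cell transcription factor. Gata2 averaged 162.8 CPM in the control and 76.8 and 81.8 CPM with shOgdh346 and shOgdh2081 (-1.03 ± 0.09). Kit (0.10 ± 0.07) and Meis1 (-0.12 ± 0.24) were not called. The part of these markers in the members' differences was not tested.

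The hairpins were compared directly, a difference that measures shOgdh2081 against shOgdh346 without the control. No member was called by edgeR's quasi-likelihood test, against a background of 0.0371% of genes, and DESeq2 called 0. At an unadjusted p under 0.05 there was 1 member, Itga4, which was higher with shOgdh2081 by 0.27 ± 0.09 on the log2 scale (adjusted p = 0.273). For Itgal the difference was 0.14, with a 95% interval from -0.33 to 0.62, so a moderate difference between the hairpins in either direction cannot be set aside. For Itgb3 that interval was wider, from -1.04 to 0.43.

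At day 2, control cells that had induced the hairpin held less transcript of 4 integrin chains than control cells that had not. Itgb2, Itga2b, Itga5 and Itga4 were called lower, 4 of 9 tested members, and none was called higher. Of all tested genes 3.29% were called lower in this comparison. The median of the 9 members was -0.08, and that of all tested genes 0.000254. Both populations carried shRen713, so this contrast holds the control hairpin, BFP and the sort, and none of these can be told apart.

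Itgb2 measured 34.3 and 35.0 CPM in BFP- cells and 16.9 and 17.7 CPM in BFP+ cells at day 2. The BFP+ libraries were about equal, at the lowest Itgb2 levels in the study, and the BFP- libraries had its highest. Itgb2 fell by 50.5% (log2 fold change -1.01 ± 0.20, edgeR adjusted p = 0.000165), and within the sets of library numbers the difference was -1.02 and -0.981. Its partner chain Itgal measured 29.1 and 27.3 CPM in BFP- and 31.7 and 27.9 CPM in BFP+ cells, with overlapping groups (0.11 ± 0.18, edgeR adjusted p = 0.800). The ratio of Itgal to Itgb2 accordingly ran from 0.850 and 0.780 in BFP- cells to 1.88 and 1.58 in BFP+ cells.

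Itga2b measured 54.4 and 45.9 CPM in BFP- cells and 27.2 and 34.8 CPM in BFP+ cells at day 2, and the groups did not overlap. It was 39.3% lower in BFP+ cells (-0.72 ± 0.16, edgeR adjusted p = 0.00138). Replicate 1 showed the wider gap, and the difference was -1.0 in the first set of library numbers and -0.402 in the second. Itga5 measured 245 and 202 CPM in BFP- and 159 and 183 CPM in BFP+ cells. It was 23.9% lower in BFP+ cells (-0.39 ± 0.09, edgeR adjusted p = 0.00313), with -0.629 in the first set and -0.148 in the second. Itga4 measured 352 and 345 CPM in BFP- and 272 and 305 CPM in BFP+ cells. Both BFP+ libraries lay below both BFP- libraries, and Itga4 was 17.9% lower in BFP+ cells (-0.28 ± 0.09, edgeR adjusted p = 0.0331).

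These day 2 calls leaned on BFP+ replicate 1. Without that library no member was called by edgeR: Itgb2 stood at -0.97 (adjusted p = 0.0505), Itga2b at -0.50 (0.277), Itga5 at -0.28 (0.283) and Itga4 at -0.19 (0.448). Without BFP- replicate 1 Itga5 (-0.26, adjusted p = 0.146) and Itga4 (-0.26, 0.108) were not called by edgeR. Over all alternatives the adjusted p ran from 0.000104 to 0.0505 for Itgb2, from 0.000655 to 0.277 for Itga2b, from 0.000326 to 0.283 for Itga5 and from 0.0266 to 0.448 for Itga4. DESeq2 called 3 of the 4 and not Itga4.

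The other members did not pass at day 2. Itgb1 (356 and 449.6 CPM in BFP-, 387 and 380.3 CPM in BFP+ cells) and Itgb7 (106 and 97.9 CPM, then 100.2 and 96.1 CPM) differed by -0.08 ± 0.08 and -0.04 ± 0.11. Itga6 (49.2 and 42.0 CPM, then 47.5 and 50.4 CPM) and Itgb3 (2.14 and 2.33 CPM, then 2.75 and 4.77 CPM) differed by 0.12 ± 0.15 and 0.60 ± 0.55. Itgav, not tested, measured 1.71 and 1.17 CPM in BFP- and 1.03 and 0.681 CPM in BFP+ cells. Beside the lower chains, the summed erythroid markers were 822.7 to 832 CPM in BFP- and 659 to 685.5 CPM in BFP+ cells at day 2. The megakaryocyte markers were 39.6 to 41.5 CPM and 32.0 to 36.2 CPM, and the progenitor markers 754.4 to 828.1 CPM and 637.6 to 658.3 CPM. Genes within these lists differed in direction. Of 7 tested erythroid genes 3 were called lower and 1 higher, and of 3 megakaryocyte genes 1 lower and 1 higher. Of 3 progenitor genes 1 was called lower. The background was 3.29% lower and 3.04% higher. The part of these markers in the difference of the 4 chains was not tested.

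At day 4 the same contrast called no member by edgeR or DESeq2, and 0.0741% of all tested genes were called by edgeR. Itgal alone was under an unadjusted p of 0.05, at 19.5 and 22.1 CPM in BFP- and 27.3 and 37.8 CPM in BFP+ cells (0.58 ± 0.16, edgeR adjusted p = 0.272). Itgb2 measured 31.2 and 25.02 CPM in BFP- and 24.4 and 23.3 CPM in BFP+ cells, and Itga2b 48.5 and 41.9 CPM and then 47.3 and 43.8 CPM. The gap in Itgb2 was small, and the Itga2b groups overlapped.

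The change between days was tested as the day 4 contrast minus the day 2 contrast, and no member was called (background 0.714%). At an unadjusted p under 0.05 there were 4 members, the same 4 that were called lower in BFP+ cells at day 2, and DESeq2 called 0. This test contains the day 2 contrast itself, so that overlap is partly built in and nothing is read from it. Itga2b came nearest (0.77 ± 0.21, edgeR adjusted p = 0.0511), followed by Itgb2 (0.84 ± 0.26, edgeR adjusted p = 0.133). Itga4 (0.31 ± 0.12) and Itga5 (0.32 ± 0.12) were smaller (edgeR adjusted p = 0.289 and 0.312). The call for Itga2b turned on the setting: it was made with the replicate block (edgeR adjusted p = 0.0347) and over its alternatives the adjusted p ran from 0.0235 to 0.989. A loss of the day 2 difference by day 4 was thus not established for any single gene.

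**Figure D5:**
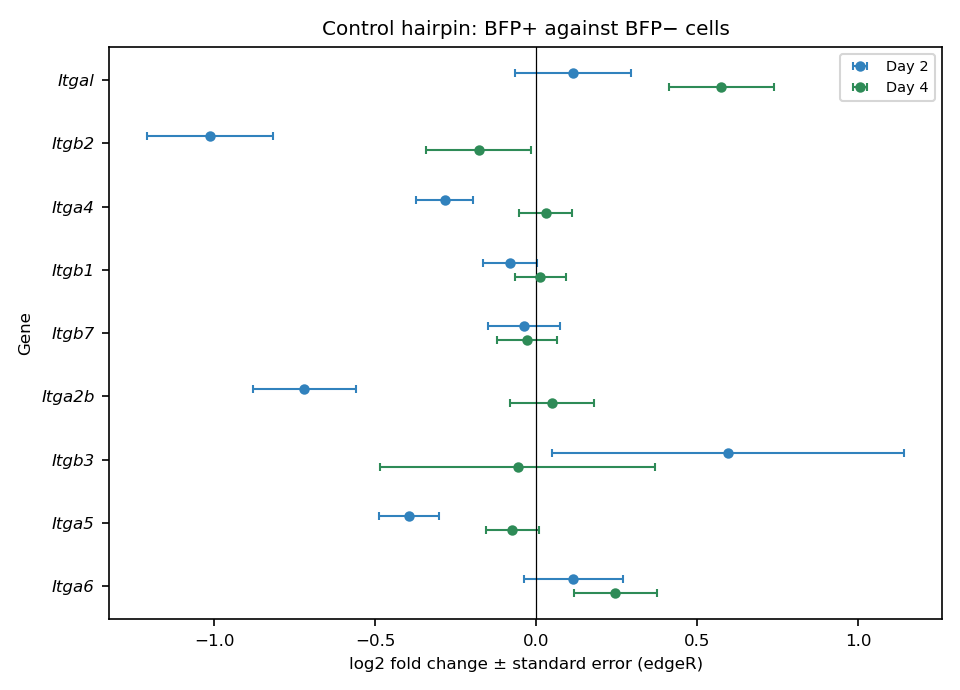
Log2 fold change of the 9 tested integrin genes in control BFP+ against BFP- cells at day 2 and day 4 (points), with standard errors from edgeR (bars). At day 2 Itgb2 lies at -1.01, Itga2b at -0.72, Itga5 at -0.39 and Itga4 at -0.28, and at day 4 no member was called.

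Each sorted control population was also set against untreated day 0 cells, a comparison that combines time, doxycycline and sorting. All 4 comparisons share the day 0 libraries, and those at day 2 and day 4 also share libraries with the contrasts above. In BFP- cells at day 2 no member was called by edgeR or DESeq2 (background 10.5%), with Itgb2 (0.41 ± 0.17) and Itgb7 (-0.27 ± 0.10) under an unadjusted p of 0.05. In BFP+ cells at day 2, 4 members fell, against 8.79% of genes called lower. Itga2b, at 44.7 and 44.1 CPM on day 0, was lower by 0.57 ± 0.17 (edgeR adjusted p = 0.0103), and Itga4, at 347 and 344 CPM, by 0.27 ± 0.09 (edgeR adjusted p = 0.0213). Itgb2, at 24.8 and 27.3 CPM on day 0, was lower by 0.60 ± 0.21 (edgeR adjusted p = 0.037), and Itgb7, at 129.9 and 113 CPM, by 0.30 ± 0.11 (edgeR adjusted p = 0.0476). DESeq2 called none of these. EdgeR called none without BFP+ replicate 1 or without day 0 replicate 1, 2 without day 0 replicate 2, and 3 without BFP+ replicate 2.

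At day 4 the members called against day 0 were the fibronectin and laminin chains Itga5 and Itga6. Itga5 rose from 200.1 and 199 CPM at day 0 to 268 and 242 CPM in BFP- cells (0.34 ± 0.08, edgeR adjusted p = 0.00439), the only member called there (background 3.86%). That call was lost without either day 0 library (edgeR adjusted p = 0.0676 and 0.0872) and without BFP- replicate 1 (0.0591). In BFP+ cells at day 4, Itga5 (238 and 244 CPM) rose by 0.27 ± 0.09 (edgeR adjusted p = 0.0474) and Itga6 by 0.56 ± 0.15 (edgeR adjusted p = 0.0137), against a background of 3.51%. Itga6 measured 41.2 and 36.3 CPM at day 0, below both day 4 libraries. Without BFP+ replicate 2 its difference was 0.30 (edgeR adjusted p = 0.411), and without day 0 replicate 2 it was 0.46 (0.180). The Itga5 call in BFP+ cells was lost whichever library was left out, and DESeq2 called neither gene. The remaining day 0 levels were 25.2 and 25.8 CPM for Itgal, 386 and 375 CPM for Itgb1, 3.90 and 4.30 CPM for Itgb3 and 1.06 and 2.73 CPM for Itgav.

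The members' levels were also compared with each other and with the other genes across the 14 libraries, as a description in which points share groups, depth and library numbers. Among pairs of members Itgb2 and Itga2b, which belong to different receptors, had the highest Pearson r (0.852). Between partner chains r was 0.453 for Itga5 and Itgb1, 0.437 for Itga4 and Itgb1, and 0.209 for Itgal and Itgb2. It was 0.129 for Itga4 and Itgb7, -0.138 for Itga2b and Itgb3, and -0.16 for Itga6 and Itgb1. The r of other genes with Itgal includes the 4 Ogdh libraries, where Itgal was lowest, and so contains that difference. The genes most like Itgal among 8722 with a mean of at least 10 CPM were Btk (0.928), a kinase of cytokine and antigen receptor signalling, Ufm1 (0.926), a ubiquitin-like modifier, Trap1 (0.920), a mitochondrial chaperone, Gcsh (0.919), a part of the glycine cleavage system, and Nup210 (0.917), a nuclear pore protein. Those most like Itga2b were A230050P20Rik (0.903), Sgsm2 (0.901), Aff3 (0.888), Psmb8 (0.880), an immunoproteasome subunit, and Dok2 (0.870), an adaptor that restrains kinase signalling.

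Genes that act with integrins showed a few changes with Ogdh knockdown, in both directions. The counts that follow are over both hairpins together, where 7.84% of all tested genes were called higher and 8.48% lower. The lists were chosen with earlier results of these data known. Genes given below with levels were picked by their call in this same comparison, so their adjusted p-values are a description. Of 15 genes that switch integrins on, 12 were tested, and 4 fell and 8 did not pass, with a median log2 fold change of -0.13. With shOgdh346 alone 3 were called lower, and with shOgdh2081 alone 1. They were the kindlin genes Fermt2 and Fermt3 and the activators of the small GTPase RAP1, Rasgrp2 and Rapgef1, of which all but Fermt2 were named after their values were seen. Fermt3 and Rasgrp2 were called with neither hairpin alone, and Fermt2 was not called with shOgdh2081 alone. Fermt2 measured 30.4 CPM as the mean in control BFP+ cells against 19.6 CPM with shOgdh346 and 23.8 with shOgdh2081 (-0.56 ± 0.16, edgeR adjusted p = 0.00798). Of 8 inhibitors of integrins 1 fell, Flna, also named after its value was seen, and 7 did not pass (median -0.19). Of 24 adaptors and kinases 18 were tested, and 2 rose, 2 fell and 14 did not pass (median -0.03). Parvg, a parvin of blood cells that links integrins to actin, went from 64.5 CPM to 42.2 and 40.8 CPM (-0.58 ± 0.12, edgeR adjusted p = 0.000211).

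Of 19 ligand genes 4 were tested, and 1 rose, 1 fell and 2 did not pass, against the same 7.84% higher and 8.48% lower of all genes. Vwf, the platelet adhesion ligand, went from 14.8 CPM to 25.2 and 25.4 CPM (0.85 ± 0.18, edgeR adjusted p = 0.000492). Tgfb1, which integrins of the alpha V kind can release from its latent form, went from 131 CPM to 82.4 and 81.4 CPM (-0.60 ± 0.10, edgeR adjusted p = 5.05e-06). Of 12 membrane partners 10 were tested, and 2 rose and 8 did not pass (median 0.09). Cd9, a tetraspanin that binds integrins, went from 5.85 CPM to 13.6 and 13.0 CPM (1.19 ± 0.27, edgeR adjusted p = 0.000801). Against BFP- control cells, which held 11.1 CPM, Cd9 was not called (0.25, edgeR adjusted p = 0.341). Vwf, at 19.7 CPM in those cells, was higher by 0.44 against them and Parvg, at 53.6 CPM, was lower (-0.29), both smaller than against BFP+ cells. Itga9, another partner of Itgb1, went from 44.3 CPM to 25.3 and 27.1 CPM (-0.70 ± 0.14, edgeR adjusted p = 0.000138), and it kept its call in all 13 alternatives, as did Tgfb1. Fermt2, Parvg, Vwf and Cd9 each lost theirs without control BFP+ replicate 1 (-0.47, -0.52, 0.74 and 1.14). Over the 13 alternatives Fermt2 and Cd9 lost their call in 3 each, and Parvg and Vwf in 1 each.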

How the data were processed

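The authors deposited raw counts per gene for 14 libraries in a single table. Per the submitters' processing notes, FastQC 0.11.5, Trimmomatic 0.36, STAR 2.6.1a and featureCounts 1.6.3 were used with the mouse builds mm10 and GRCm38. The labels' protocols name HTSeq and a human build instead, but the identifiers are those of mouse Ensembl genes. The sources used here do not state whether counting used strand. The authors also deposited a transcript length in bases, used only for levels per length.

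Groups were taken from the sample titles. Genes were filtered with filterByExpr, scaled with TMM factors and tested with edgeR 4.0.16 (R 4.3.3), by its two-sided quasi-likelihood test, in 1 model of 14 libraries with group as the only term. Adjusted p-values are Benjamini-Hochberg values over all 10791 genes. A log2 fold change is given ± its standard error, and 95% intervals are those of the fit. DESeq2 1.42.0 and other settings were alternatives. The script was tested on simulated data. Chi-square per degree of freedom between replicates was 1.16 to 2.71, where counting error alone gives about 1. This cannot tell separate cultures from repeat libraries of 1 culture.

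The members and all gene lists were chosen with earlier results of these data known. All 10 members were named in every comparison. From the other adhesion lists, genes called in the pooled comparison of both hairpins with control BFP+ cells and with a log2 fold change of at least 0.5 in size were named, at most 4 per list and direction. Likeness was the Pearson r of log2 CPM (prior count 2), with the 5 highest named for Itgal and Itga2b.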

Additional observations from a re-analysis of the deposited data

How the results depend on the processing

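Of 99 member estimates, 16 were called. None of these 16 changed sign in an alternative, and 3 kept their call in all that were run. Those 3 were Itgal over both hairpins and with each hairpin alone. They share libraries, and the list was chosen with the lower Itgal level known. Of the 83 uncalled estimates, 30 changed sign and 5 were called in an alternative. The alternatives for the named genes of the other adhesion lists were chosen after seeing the data. Genes called with the DESeq2 test, against edgeR, were 700 against 1761 for both Ogdh hairpins, 406 against 1213 for shOgdh346, 460 against 1257 for shOgdh2081, 1 against 4 for the hairpin difference, 223 against 683 for BFP+ against BFP- at day 2, 3 against 8 at day 4 and 22 against 77 for the difference of days. Against day 0 they were 304 against 1130 (BFP- day 2), 817 against 1934 (BFP+ day 2), 262 against 872 (BFP- day 4) and 296 against 778 (BFP+ day 4). Leaving out 1 library gave 478 to 1477, 381 to 766, 354 to 783, 0 to 27, 234 to 654, 3 to 12, 29 to 97, 346 to 1250, 863 to 1374, 225 to 1045 and 196 to 389 genes, in the same order. It leaves 1 sample in a group, assumed to vary like the other groups. Without the shallow library of each hairpin, 734 genes were called for shOgdh346, 695 for shOgdh2081 and 2 for the hairpin difference, which gave 10 with no filter on low counts. Members called when 1 library was left out numbered 0 to 4 at day 2 (BFP+ against BFP-), 0 to 1 for the difference of days, 0 to 3 for BFP+ day 2 against day 0 (2 with no filter, 0 with DESeq2), 0 to 1 for BFP- day 4 and 0 to 1 for BFP+ day 4 against day 0 (1 with DESeq2 size factors, 1 with no filter, 0 with DESeq2, 1 with the library set block). Same-numbered libraries were not shown to be pairs: their deviations from group means correlated from -0.235 to 0.305 over 21 pairs of groups. With the replicate block 1 member was called for the difference of days, Itga2b, and 2 genes for the hairpin difference; the library set block gave 1 and 2. Apart from the construction of these alternatives, the cause of these differences was not tested. Depth limited Itgb3 and Itgav most, and counting error alone is wide at their counts.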
